A study of Mus musculus with 12 samples.

Results

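The forkhead (Fox) transcription factor genes were read here as a family: every autosomal protein-coding gene of the mm9 annotation whose symbol is Fox, 1 letter from a to s and a number. The rule gave 39 of 21418 autosomal protein-coding genes. It uses no methylation value, though the family was chosen with earlier results of these data known. DNA methylation had been read by reduced representation bisulfite sequencing (RRBS), in which MspI fragments are treated with bisulfite and the share of reads still methylated is counted at each CpG. The cells, called PKD1-Het, were proximal renal tubule epithelial cells from Pkd1 flox/- mice with the TSLargeT transgene, so every group carried a single functional copy of Pkd1 and the SV40 large T antigen. They were used at passage 3 and treated for 24 h in 4 groups of 3 libraries, each from 500000 cells. The PBS group received PBS only and the Aza group 50 µM of 5-aza-2'-deoxycytidine, an inhibitor of DNA methyltransferases. In the F-MTAza group the same 50 µM Aza was given free in solution together with metformin at 300 µM and tolvaptan at 10 µM, and in the NP-MTAza group all of these drugs were packed in micelles. Whether the 3 replicates of a group were separate cultures is not stated in the sources used here, so each p-value measures only the spread between these libraries, which may be technical.

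Forkhead proteins bind DNA through a winged helix domain shared by the whole family, and many of them set cell identity during development. Foxa factors can open closed chromatin in endoderm, Foxc and Foxd factors act in mesenchyme and kidney stroma, Foxi1 is needed for the acid-secreting intercalated cells of the collecting duct, and Foxj1 drives the genes of motile cilia. Foxm1 drives mitotic genes, and the Foxo factors are held out of the nucleus by insulin signalling. Many developmental family members lie in long CpG-rich stretches, in which CpGs are usually unmethylated near an active or poised start site.

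Depth ran from 25336747 to 65817118 reads a library, summed over its listed CpGs, at a median of 7 to 9 reads per CpG. Aza replicates 1 and 2 stood apart: they listed 34427 and 34016 repeated positions and had 99.8% of their CpGs at a CG of mm9, against 99.96% or more in the other libraries, and their levels at several forkhead promoters lay above those of PBS. They were left out by the rule that defines the family, so the Aza group was a single library, replicate 3, whose spread the limma model took from the other groups. Aza replicates 1 and 2 and NP-MTAza replicates 1 and 2 had been read with 2 barcode sets, and the other libraries, Aza replicate 3 included, with 1. No expression was measured, so the cell type could be checked only through promoter methylation. Of 11 proximal tubule markers 4 had enough CpGs, with PBS means of 22.8% at Lrp2 and 86.8% at Hnf4a among them. Of 11 markers of other cells 5 had a value, from 28.0% at Nphs1 to 89.6% at Pecam1.

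Stretches of 300 bases from 4 members show what was read. Windows were tried at a fixed distance before each CpG called lower or at 10% or less. Those touching an annotated untranslated region were left out. Among the windows tried, the first 3 stretches hold the most CpGs called lower after F-MTAza, NP-MTAza or both in a single window of a member. The last stretch holds the most CpGs at 10% or less in all 10 libraries among windows within promoters. All are mm9 sequence on the strand of the gene, 5′ to 3′. Capitals mark the called CpGs in the first 3 stretches and the CpGs at 10% or less in the last. Because these counts chose the windows, their levels are a description without a test. The Foxq1 stretch, chr13:31651235-31651534 on the plus strand, lies in the coding exon 1196 to 1495 bp from the gene start and holds 39 CpGs, 14 in capitals.
Foxq1: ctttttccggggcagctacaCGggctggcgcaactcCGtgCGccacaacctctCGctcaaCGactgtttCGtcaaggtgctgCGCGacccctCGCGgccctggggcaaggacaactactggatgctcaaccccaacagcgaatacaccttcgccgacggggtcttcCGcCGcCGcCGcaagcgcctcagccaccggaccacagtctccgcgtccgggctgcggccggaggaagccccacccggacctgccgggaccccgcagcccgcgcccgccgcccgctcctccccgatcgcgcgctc
Over its capitals the level was 66.4, 71.1 and 50.2% in the 3 PBS libraries, 24.3% in Aza replicate 3, 44.7% in F-MTAza replicate 2 and 11.3, 15.0 and 12.4% in the NP-MTAza libraries. The other F-MTAza libraries listed no CpG there, since only sites with 5 or more reads are listed. The Foxp4 stretch, chr17:48046229-48046528 on the minus strand, is intronic, 15066 to 15365 bp from the start, with 10 of 15 CpGs in capitals.
Foxp4: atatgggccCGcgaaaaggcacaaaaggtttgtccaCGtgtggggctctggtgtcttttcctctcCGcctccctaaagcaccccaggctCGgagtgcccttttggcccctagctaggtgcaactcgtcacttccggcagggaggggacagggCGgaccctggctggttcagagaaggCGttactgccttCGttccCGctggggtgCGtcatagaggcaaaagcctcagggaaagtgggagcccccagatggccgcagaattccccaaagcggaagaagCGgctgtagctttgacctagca
Here the level was 96.9, 96.8 and 98.4% in PBS, 63.6% in Aza replicate 3, 41.3, 59.8 and 62.2% in F-MTAza and 59.2, 64.9 and 50.7% in NP-MTAza. The Foxk1 stretch, chr5:142898268-142898567 on the plus strand, is intronic as well, 20817 to 21116 bp from the start, with 7 of 10 CpGs in capitals.
Foxk1: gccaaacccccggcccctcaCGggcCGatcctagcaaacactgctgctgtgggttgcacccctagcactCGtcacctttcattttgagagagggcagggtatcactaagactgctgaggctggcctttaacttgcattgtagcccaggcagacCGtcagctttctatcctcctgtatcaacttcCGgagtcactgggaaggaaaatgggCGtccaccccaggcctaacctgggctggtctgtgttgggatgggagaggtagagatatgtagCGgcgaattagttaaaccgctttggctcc
PBS libraries read 95.4, 98.0 and 97.4% over its capitals, Aza replicate 3 read 50.8%, F-MTAza 63.6, 75 and 38.5%, and NP-MTAza 76.4, 55.3 and 39.4%. The Foxo3 stretch, chr10:41997438-41997737 on the minus strand, lies upstream, at -1176 to -877 bp from the start, and has 17 of 32 CpGs in capitals.
Foxo3: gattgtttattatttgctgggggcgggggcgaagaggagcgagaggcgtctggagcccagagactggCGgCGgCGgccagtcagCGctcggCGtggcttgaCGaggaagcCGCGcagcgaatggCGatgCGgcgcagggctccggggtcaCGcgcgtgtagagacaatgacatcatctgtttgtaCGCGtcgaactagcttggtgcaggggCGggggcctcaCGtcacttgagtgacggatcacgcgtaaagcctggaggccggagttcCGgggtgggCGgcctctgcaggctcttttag
Its capitals read 0.455, 0.803 and 0.275% in PBS and 0 in the other 7 libraries, on 137 to 363 reads a library. A count of 0 there allows a level of up to 1.11 to 2.19% (3 counts of a library's reads, counting error only). The low values follow from the choice of the capitals: over all listed CpGs of the stretch, 11 were above 10% in PBS replicate 2, the highest at 25%, and 3 in NP-MTAza replicate 1, and none in the other libraries.

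For each gene the promoter was taken from 2000 bp upstream to 500 bp downstream of the gene start and the body as the rest. A level is the methylated share of all reads over the CpGs with 5 or more reads, given where 3 or more such CpGs were present. In PBS 36 promoters had a value: 8 were under 10%, 10 between 10 and 50% and 18 at 50% or more. Foxd4, Foxn1 and Foxr1 had none. The unmethylated end held Foxj2, Foxc1, Foxo3, Foxj1, Foxn2, Foxa1, Foxj3 and Foxo1. The methylated end, at 90% or more, included Foxk2, Foxp1, Foxd1, Foxn3 and Foxs1. Among the 29 promoters with a value in all 10 libraries the median PBS level was 40.8%, against 14.9% over all 11383 promoters tested. Among CpG-rich promoters the gap was present as well: of 22 forkhead promoters with an observed over expected CpG ratio of 0.6 or more, 9 (40.9%) were at 50% or more in PBS, against 478 of 3621 (13.2%) among all such promoters. Conversely, 5 of the 22 (22.7%) were under 10%, against 61.8% of all. In other families of developmental regulators, the median PBS promoter level was 10.1% over 36 Hox genes and 61.9% over 25 Sox and Tbx genes.

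**Figure D1:**
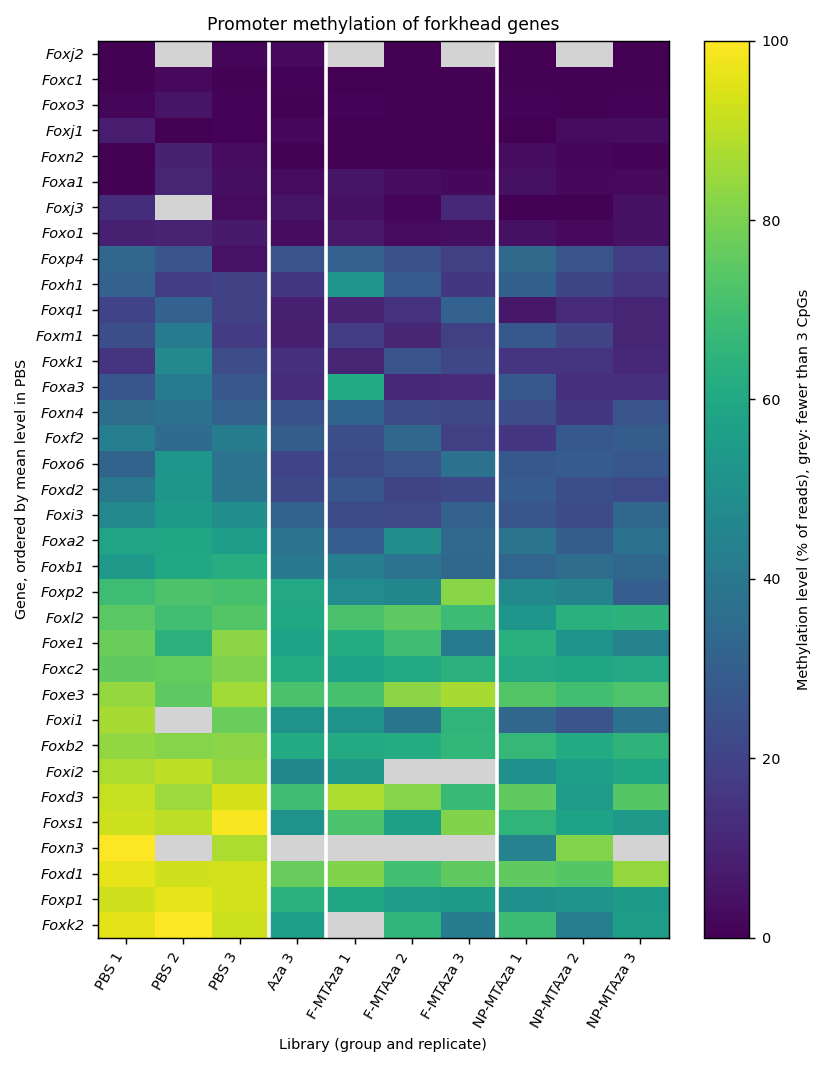
Promoter methylation of forkhead genes with a value in PBS, in % of reads, ordered by mean PBS level from top to bottom. Columns are the 10 libraries, white lines part the groups, and grey marks fewer than 3 CpGs. The top 8 genes stay dark in every library with a value, with grey cells at Foxj2 and Foxj3. The genes at the bottom turn from yellow in PBS to green after treatment.

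The profile around the start differed in shape from that of all genes. It averages the levels of the listed CpGs in a bin, each CpG counted equally, so genes with more listed CpGs weigh more. In the first 500 bp downstream of the start the forkhead mean in PBS was 57.4% ± 2.7 (SD, n = 3 libraries), against 21.7% ± 2.9 over all genes. Between 500 and 1000 bp the 2 means were 63.6 and 31.3%, while in the 500 bp upstream they were 29.4 and 20.1%. Farther out, between 2000 and 1500 bp upstream, the order turned: CpGs of forkhead genes averaged 31.0% and those of all genes 62.8%. In F-MTAza and NP-MTAza the first 500 bp of forkhead genes averaged 44.8% ± 0.88 and 38.8% ± 4.2, and Aza replicate 3 read 41.9%. Each of the 12 forkhead bins had a lower mean in the 3 treated groups than in PBS.

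**Figure D2:**
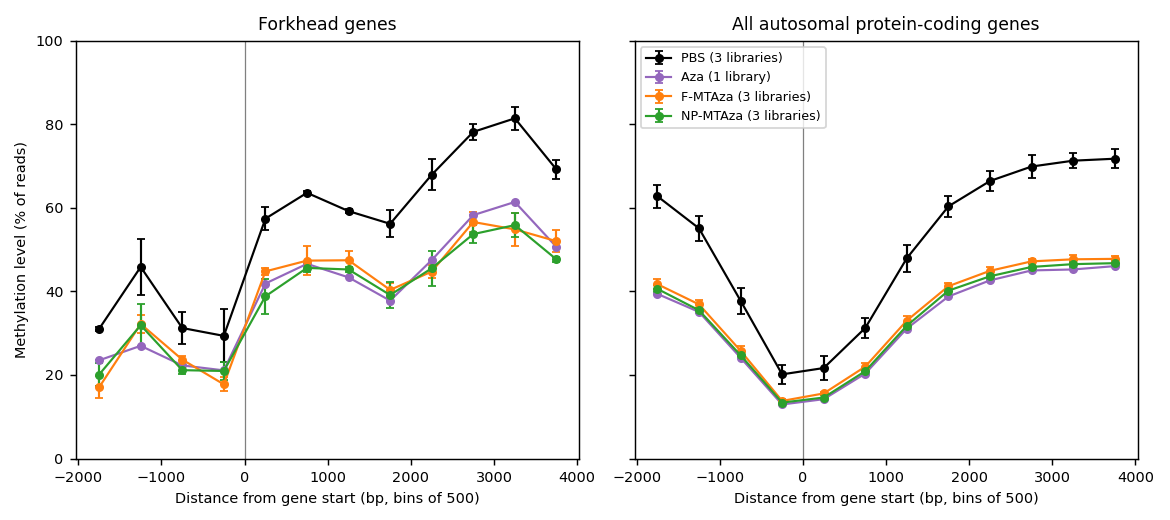
Mean of the methylation levels (%) of single CpGs, each counted equally, in bins of 500 bp by distance from the gene start. Forkhead genes are on the left and all autosomal protein-coding genes on the right. Points are group means over libraries, bars are 1 SD, and Aza is 1 library without a bar. In PBS the forkhead curve climbs to 57.4% within 500 bp of the start, where all genes sit at 21.7%.

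Against PBS a promoter was called lower or higher where limma's adjusted p was under 0.05 and the level differed by at least 10 points. After F-MTAza 9 of 29 forkhead promoters were lower (31.0%, against 22.4% of all promoters tested), after NP-MTAza 11 (37.9%, against 24.5%) and in the single Aza library 3 (10.3%, against 11.1%). None was higher in any of these comparisons. The median differences were -10.8, -13.9 and -14.6 points, against -4.81, -5.32 and -5.65 points over all promoters. Every F-MTAza library lay below every PBS library at 13 promoters (44.8%, against 39.8% of all) and every NP-MTAza library at 20 (69.0%, against 43.6%). Foxp1, Foxs1, Foxi3, Foxb1, Foxa2, Foxd2, Foxb2, Foxd1 and Foxc2 were lower after both combinations, Foxp2 and Foxd3 after NP-MTAza only by the call, and 18 after neither. F-MTAza and NP-MTAza were set against the same PBS libraries, so their calls are not independent. These calls rested on the choice of libraries: with Aza replicates 1 and 2 in the model, 0 of 28 forkhead promoters and 0 of 9942 promoters in all passed limma after either combination, with 4 and 8 forkhead promoters at an unadjusted p under 0.05. The NP-MTAza count was 7 without NP-MTAza replicate 2 and 1 with only the libraries of a single barcode set, which leaves NP-MTAza replicate 3 alone and calls 5.14% of all promoters.

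The Foxp repressors, which pair with each other and act in lung, brain and lymphocyte development, held the largest difference of the combinations from PBS among the tested promoters. At the Foxp1 promoter (chr6, gene at 98875332 to 99216526, minus strand) PBS libraries read 92.9, 96.4 and 93.3%, F-MTAza 59.0, 55.3 and 54.5%, NP-MTAza 50.0, 51.7 and 54.5% and Aza replicate 3 63.9%. No treated library came near the PBS range. The differences were -37.9 points after F-MTAza (95% interval -42.3 to -33.6, adjusted p = 0.000801) and -42.1 points after NP-MTAza (-46.4 to -37.7, adjusted p = 0.000629), on only 3 to 7 CpGs a library. At Foxp2, a gene of brain circuits for vocal learning, PBS read 68.8, 72.1 and 70.7%, F-MTAza 48.4, 45.7 and 82.3% and NP-MTAza 48.0, 44.7 and 30.1%. F-MTAza replicate 3 stood above PBS and its fellow replicates below. Only the NP-MTAza difference of -29.6 points was called (adjusted p = 0.044), and it was lost without any 1 of the PBS or NP-MTAza libraries, at adjusted p of 0.0653 to 0.155. The Foxp4 promoter read 32.9, 26.3 and 5.07% in PBS, so PBS spanned the range of the treated libraries, with means of 21.4% ± 14.6 in PBS, 25.02% ± 6.13 in F-MTAza and 26.4% ± 8.13 in NP-MTAza.

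Foxa2, a pioneer factor of endoderm and liver, had a promoter in the middle of the range. PBS libraries read 58.2, 58.7 and 56.1%, F-MTAza 30.0, 49.4 and 34.1%, NP-MTAza 38.4, 29.6 and 37.2%, and Aza replicate 3 38.0%. The PBS libraries lay close together and above all treated ones. The differences were -19.8 points after F-MTAza (adjusted p = 0.028) and -22.6 points after NP-MTAza (adjusted p = 0.015). The former was lost when any 1 PBS library, F-MTAza replicate 1 or F-MTAza replicate 3 was left out (adjusted p of 0.053 to 0.092), the latter without NP-MTAza replicate 2 (0.060). Foxa1, its partner, was nearly free of methylation, with means of 4.87% in PBS, 3.60% in F-MTAza and 3.12% in NP-MTAza. Foxa3 read 26.6, 40.9 and 27.3% in PBS and 61.1, 11.5 and 11.8% in F-MTAza. Its F-MTAza replicate 1 was the highest of all and the interval of the F-MTAza difference ran from -34.4 to 27.4 points. Over the 3 Foxa3 CpGs listed in all 10 libraries the means were 72.1% in PBS, 61.2% in F-MTAza and 47.9% in NP-MTAza. Foxb1, which acts in the hypothalamus, had PBS values of 54.2, 60.1 and 62.3% and F-MTAza values of 43.0, 38.2 and 33.5%. NP-MTAza read 32.6, 35.7 and 34.0% there, 24.8 points under PBS (adjusted p = 0.0033). With the promoter taken from 1000 bp upstream, the Foxb1 differences were -10.4 and -17.9 points and neither was called. At Foxb2 the PBS libraries read 83.7, 81.9 and 82.6% and all 7 treated libraries between 61.1 and 66.4%, a gap wide against the spread within groups, and Foxb2 was called in all 3 comparisons, though in Aza not without PBS replicate 1 (adjusted p = 0.053).

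Among the kidney mesenchyme and stroma genes, Foxc1 and Foxc2 encode close relatives needed in podocytes and vessels, yet their promoters lay at opposite ends. Foxc1 read 0.573, 2.51 and 0.505% in PBS and between 0.113 and 0.971% in the 7 treated libraries. Foxc2 read 75.4, 76.2 and 80.8% in PBS, 57.9, 60.9 and 64.2% in F-MTAza and 60.4, 59.3 and 60.4% in NP-MTAza. The Foxc2 groups did not overlap, with differences of -16.5 (adjusted p = 0.011) and -17.4 points (adjusted p = 0.0078). Over the CpGs listed in all 10 libraries the Foxc2 differences were -12.4 and -12.0 points and missed the threshold. Foxd1, the marker gene of renal stromal progenitors, read 96.1, 92.6 and 93.3% in PBS, 80.9, 69.7 and 75.4% in F-MTAza and 75.6, 73.8 and 84.2% in NP-MTAza. Its differences were -18.7 (adjusted p = 0.0060) and -16.2 points (adjusted p = 0.0088), so that the promoter kept most of its methylation. Foxd2, also active in kidney mesenchyme, read 40.1, 53.1 and 38.6% in PBS, 26.9, 20.6 and 21.7% in F-MTAza and 29.0, 24.1 and 22.2% in NP-MTAza. Differences of -20.8 (adjusted p = 0.012) and -18.9 points (adjusted p = 0.018) made Foxd2 the only called promoter among those under 50% in PBS. The NP-MTAza call was lost without NP-MTAza replicate 2 or 3 (adjusted p = 0.058 and 0.072). Foxd3, a neural crest and stem cell factor, had PBS values of 91.0, 85.4 and 93.4%, F-MTAza values of 87.5, 81.8 and 68.0% and NP-MTAza values of 75.4, 55.1 and 73.5%. Its F-MTAza libraries reached into the PBS range, and only the NP-MTAza difference of -22.0 points was called (adjusted p = 0.024). It too was lost without PBS replicate 1, PBS replicate 3 or NP-MTAza replicate 2, at adjusted p of 0.069 to 0.086.

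Of the Foxi genes, Foxi3, which acts in ear and craniofacial ectoderm, was called. Its PBS libraries read 47.0, 54.4 and 49.7%, F-MTAza 22.6, 21.9 and 31.3% and NP-MTAza 26.9, 22.8 and 33.6%. Differences of -25.1 (adjusted p = 0.0055) and -22.6 points (adjusted p = 0.0078) took the mean from 50.4% to 25.3 and 27.8%. Foxi1, the intercalated cell factor, could not be tested because PBS replicate 2 had too few CpGs. Its promoter read 87.0 and 77.2% in the other PBS libraries, 51.4, 38.8 and 65.5% in F-MTAza, 32.8, 26.3 and 37.3% in NP-MTAza and 51.5% in Aza replicate 3. All 7 treated values lay below both PBS values. Foxs1, a single-exon gene on chr2, read 92.5, 90.1 and 98.9% in PBS, 71.7, 56.9 and 81.1% in F-MTAza, 65.5, 58.0 and 54.0% in NP-MTAza and 51.0% in Aza replicate 3. It fell in all 3 comparisons, by 24.0 (adjusted p = 0.012), 34.7 (adjusted p = 0.0029) and 42.9 points (adjusted p = 0.016).

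The remaining tested promoters did not pass. Foxe1, the thyroid factor, had means of 74.8% ± 9.5 in PBS, 57.4% ± 14.6 in F-MTAza and 53.4% ± 9.4 in NP-MTAza, and its NP-MTAza interval ran from -41.3 to -1.47 points. Foxl2, which maintains the ovary, read 72.5% ± 2.4 in PBS, 71.7% ± 3.2 in F-MTAza and 60.3% ± 6.6 in NP-MTAza. Foxe3, a lens factor, kept a mean of 80.2% ± 8.3 in F-MTAza beside 82.0% ± 5.8 in PBS, with 71.7% ± 1.8 in NP-MTAza. After F-MTAza the Foxl2 and Foxe3 differences were -0.832 and -1.72 points, with intervals of -8.86 to 7.19 and -12.2 to 8.77 points. Over the CpGs listed in all 10 libraries, 14 at Foxl2 and 15 at Foxe3, the PBS means were 86.9 and 96.4%. There F-MTAza averaged 77.7 and 87.1% and NP-MTAza 78.8 and 82.0%. Foxf2, a gene of gut and palate mesenchyme, averaged 40.2, 25.4 and 24.2% in the 3 groups. For Foxo6, Foxn4, Foxa3, Foxk1, Foxm1, Foxq1 and Foxh1 the PBS means lay between 23.1 and 40.8%, and the spread was wide: at Foxk1, a metabolic regulator, the PBS libraries read 15.2, 47.1 and 23.5%. Foxm1 read 24.0, 41.4 and 17.6% in PBS and between 8.33 and 27.5% after treatment. Over its 3 CpGs listed in all 10 libraries the means were 69.1% in PBS, 49.0% in F-MTAza and 39.4% in NP-MTAza. Foxh1, the Smad partner in Nodal signalling, had means of 23.1% in PBS, 32.4% in F-MTAza and 22.5% in NP-MTAza. The CpGs summed there differed between libraries, from 7 to 47 a library. Over the 4 Foxh1 CpGs listed in all 10 libraries the means were 94.2, 64.1 and 68.0% in the same order. For the combinations against PBS the widest interval among forkhead promoters reached 30.9 points to either side and the median one 9.60 points. For the single Aza library these were 43.7 and 13.6 points. At a gene with a wide interval a smaller difference could therefore be missed.

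At the unmethylated end levels stayed near 0. Of the 8 promoters under 10% in PBS 6 could be tested and none was called, with mean differences of -4.55 to -0.835 points. Foxo3 read 1.46, 5.65 and 0.999% in PBS and between 0.622 and 1.11% in the treated libraries, on 1315 to 4304 reads. Foxo1, like Foxo3 a target of insulin signalling, read 8.62, 10.1 and 7.22% in PBS and 2.36 to 6.67% in the treated libraries. The Foxo1 groups did not overlap, with an NP-MTAza difference of -4.93 points (adjusted p = 0.10). Foxj1, the master gene of motile cilia, averaged 2.93% ± 4.27 in PBS and read at most 3.50% after treatment, and Foxn2 averaged 4.38% in PBS. Of the 10 promoters between 10 and 50% 1 was called after each combination, and of the 13 tested at 50% or more 8 were called after F-MTAza (61.5%) and 10 after NP-MTAza (76.9%). Among all 3259 promoters at 50% or more in PBS the shares were 65.8 and 73.7%, near those of the family. Over the 29 promoters the PBS level and the mean difference of both combinations had a Spearman correlation of -0.77, a description over genes that share their libraries and whose difference contains the PBS level.

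Highly methylated promoters also stood among those with too few CpGs in some library for a test. Foxk2 had 95.8, 100 and 92.6% in PBS, 65.3 and 42.6% in 2 F-MTAza libraries and 68.4, 43.3 and 55.7% in NP-MTAza. Foxi2 had 87.5, 90.3 and 84.3% in PBS and 50.0, 56.6 and 59.2% in NP-MTAza, with 54.2% in the only F-MTAza library. Foxn3 averaged 93.9% over 2 PBS libraries and read 44.4 and 81.2% in 2 NP-MTAza libraries. Foxj2 and Foxj3 averaged 0.887 and 8.01% in PBS.

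Gene bodies were methylated in nearly all members and lost methylation in most. After F-MTAza 29 of 38 tested bodies were lower (76.3%, against 84.6% of all bodies), after NP-MTAza 33 (86.8%, against 87.1%) and in the single Aza library 29 (76.3%, against 80.3%). None was higher, 26 were lower in all 3 comparisons, and all 38 had a mean below PBS by value in each. Median differences were -20.7, -24.3 and -22.8 points, against -25.9, -27.4 and -28.6 points over all 15033 bodies. In 30 bodies every F-MTAza library lay below PBS (78.9%, against 83.8% of all) and in 34 every NP-MTAza library did (89.5%, against 87.8%). With Aza replicates 1 and 2 in the model, 28, 30 and 30 of 37 bodies were lower, against 80.3, 83.2 and 80.3% of all bodies, and Foxc1 was higher in Aza, as were 1.34% of all bodies.

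**Figure D3:**
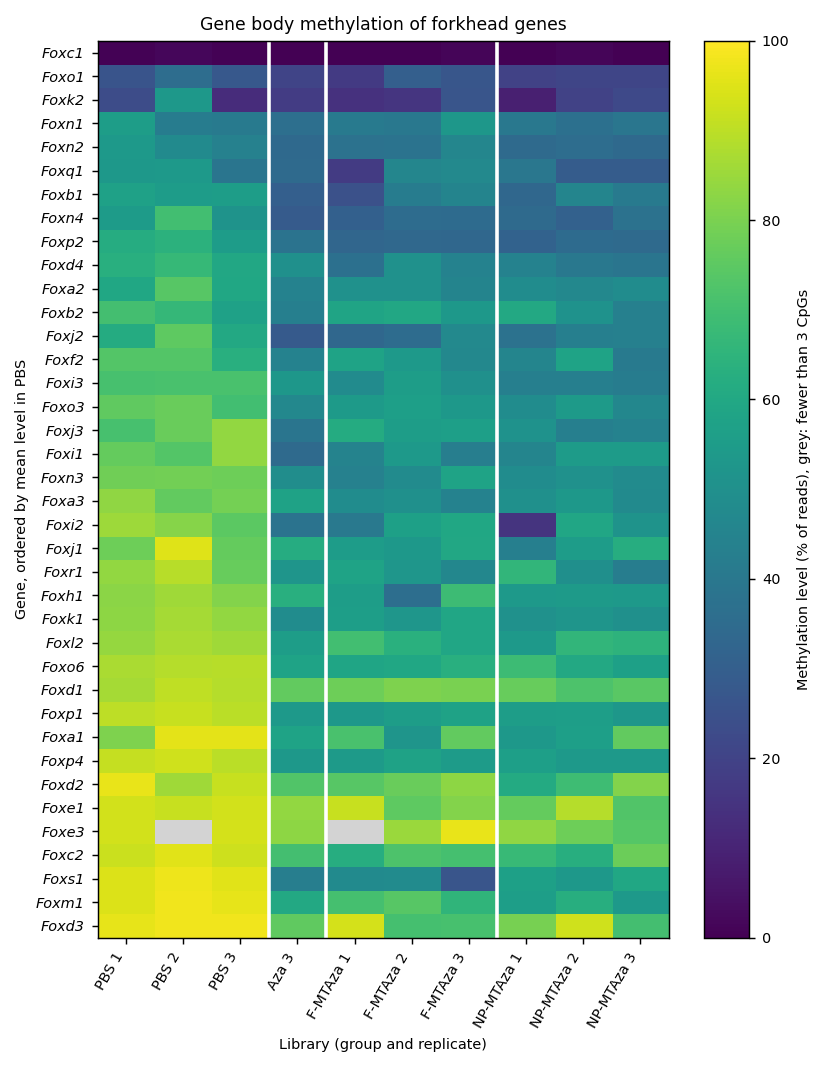
Gene body methylation of forkhead genes in % of reads, ordered by mean PBS level from top to bottom, with 1 column per library and grey for fewer than 3 CpGs. Foxc1 at the top is under 2% in every library, and the treated columns are darker than the PBS columns in nearly every other gene.

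Foxs1 had the largest body difference. Its PBS libraries read 94.5, 97.5 and 95.5%, F-MTAza 47.7, 48.4 and 26.3%, NP-MTAza 57.0, 53.2 and 59.5% and Aza replicate 3 42.7%. It fell by 55.0 points after F-MTAza (adjusted p = 1.7e-05) and 39.3 points after NP-MTAza (adjusted p = 5.1e-05), on 5 to 14 CpGs a library. Foxp1 and Foxp4 rested on far more: 409 to 732 and 175 to 422 CpGs a library. The Foxp1 body read 90.1, 91.7 and 89.8% in PBS and between 52.9 and 57.7% in all 7 treated libraries. Foxp4, whose promoter did not pass, read 91.1, 92.9 and 89.5% in PBS, 54.5, 57.7 and 54.9% in F-MTAza and 56.5, 54.1 and 54.1% in NP-MTAza. Treated libraries of both genes sat close together and all below PBS, with differences of -35.0 and -35.6 points at Foxp1 and -35.4 and -36.2 points at Foxp4. Foxp2 fell from 60.5% ± 4.6 to 33.3% ± 0.44 and 33.7% ± 1.9.

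Foxm1 joined a promoter at 27.7% in PBS to a highly methylated body. PBS libraries read 94.5, 97.9 and 96.3%, F-MTAza 70.5, 73.9 and 65.3% and NP-MTAza 56.2, 62.8 and 53.6%. The differences were -26.4 (adjusted p = 3.0e-05) and -38.7 points (adjusted p = 8.8e-06). The Foxk1 body read 83.1, 86.5 and 83.8% in PBS, 55.9, 52.6 and 59.0% in F-MTAza and 50.7, 52.1 and 50.2% in NP-MTAza, without overlap. Foxo3 joined an unmethylated promoter to a body of 75.8, 77.1 and 69.6% in PBS, which fell to 54.6, 56.6 and 53.2% in F-MTAza and 48.6, 54.4 and 46.5% in NP-MTAza. The Foxo1 body was already low, at 29.6% ± 5.3 in PBS, and did not pass, with NP-MTAza at 20.5% ± 0.74. Foxj1 went from a mean of 83.2% in PBS to 56.2% in F-MTAza and 53.7% in NP-MTAza, and both differences were called.

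Several other bodies were called after both combinations. Foxi1 read 76.3, 73.1 and 83.8% in PBS, 44.7, 53.5 and 42.9% in F-MTAza and 45.4, 54.8 and 54.8% in NP-MTAza. For Foxi2 the means were 80.7% in PBS and 52.3 and 42.0% after the combinations, with NP-MTAza replicate 1 far down at 15.2%. Its F-MTAza call was lost without PBS replicate 1, PBS replicate 2 or F-MTAza replicate 1 (adjusted p of 0.0683 to 0.0999). Foxa3, Foxh1, Foxn3 and Foxr1 had PBS means of 79.5, 83.3, 78.3 and 83.3% and combination means between 47.7 and 54.1%. The Foxn3 body, 254571 bases long, rested on 224 to 609 CpGs a library.

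**Figure D4:**
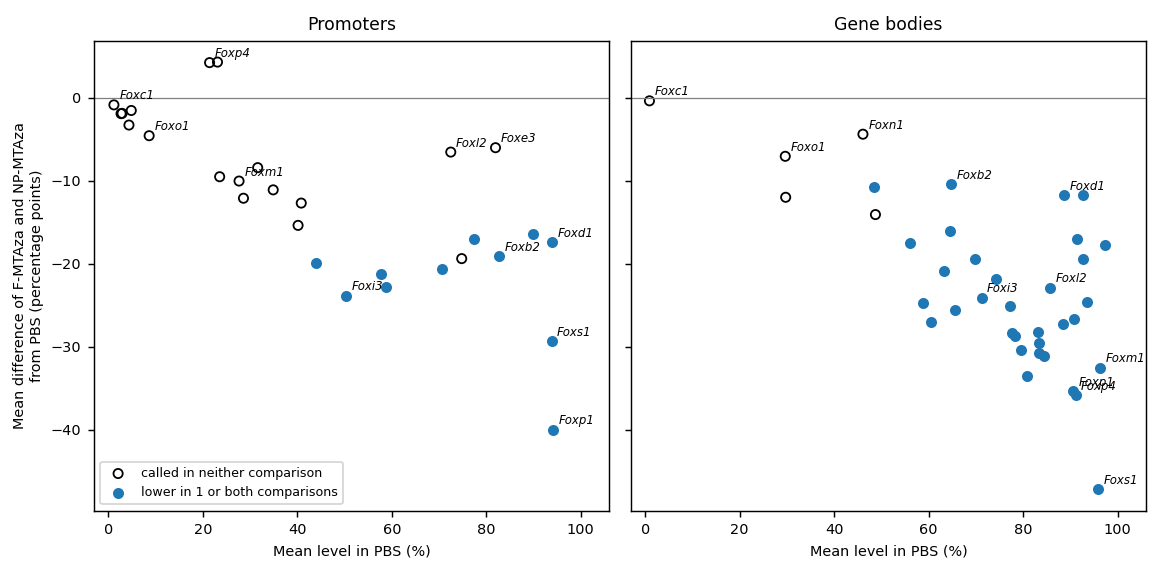
Mean level in PBS (%) against the mean difference of F-MTAza and NP-MTAza from PBS (percentage points), for the 29 tested promoters on the left and the 38 tested bodies on the right. Filled points were called lower in 1 or both comparisons, open points in neither. Foxp1 is the lowest promoter and Foxs1 the lowest body.

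Several short, CpG-rich bodies had smaller differences by value. The Foxd1 body read 86.6, 90.4 and 89.1% in PBS, 78.0, 80.5 and 80.0% in F-MTAza and 76.6, 72.2 and 74.5% in NP-MTAza. It fell by 14.3 points after NP-MTAza (adjusted p = 0.00026), while the F-MTAza difference of -9.19 points passed the test but not the minimum of 10 points. Foxe1 had PBS values of 93.1, 91.6 and 93.3% and kept 91.6, 75.1 and 81.5% in F-MTAza and 76.2, 88.9 and 72.7% in NP-MTAza. Of these only the NP-MTAza difference of -13.4 points was called (adjusted p = 0.024), and not without PBS replicate 1 or 3 or NP-MTAza replicate 1 or 3 (adjusted p of 0.056 to 0.087). Foxb2 went from 64.8% to 57.2 and 51.6%, called after NP-MTAza (adjusted p = 0.031) but not without PBS replicate 1 or 2 or NP-MTAza replicate 2 or 3 (0.072 to 0.12). Foxd3, at 97.2% in PBS, kept means of 78.2 and 80.8%, both called. These Foxd3 calls were lost without F-MTAza replicate 2 or 3 in the first case and without PBS replicate 2 or 3 or NP-MTAza replicate 1 or 3 in the second (0.059 to 0.092). The Foxd2 body averaged 91.3% in PBS, 78.0% in F-MTAza and 70.5% in NP-MTAza. Both were called, the first not without PBS replicate 1 or F-MTAza replicate 1 or 2 (0.058 to 0.082). The Foxb1 body fell from 56.1 to 37.3 and 39.9%, a call lost after NP-MTAza without PBS replicate 1 (0.058) or NP-MTAza replicate 1 (0.084).

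Foxn2, at 48.4% in PBS and 40.6 and 34.9% after the combinations, was called after NP-MTAza, and the bodies called in neither were Foxq1, Foxk2, Foxo1, Foxn1 and Foxc1. Foxn1, the gene mutated in nude mice, averaged 46.1% in PBS, 44.7% in F-MTAza and 38.8% in NP-MTAza. Foxc1 averaged 0.900% in PBS and was the only body under 10%. The Foxe3 body was not tested and averaged 93.4, 90.8 and 78.2% in the 3 groups.

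Among the 32 tested bodies at 50% or more in PBS, the share of the PBS level kept after treatment was higher in the CpG-dense ones. The 10 bodies with 5 or more CpGs per 100 bases kept a median of 80.2% (67.1 to 87.4%), with a median difference of -17.4 points. The 22 sparser bodies kept 63.5% (50.8 to 72.3%), with a median difference of -28.3 points. Foxd1, with 10.8 CpGs per 100 bases, kept 86.8%, and Foxp2, with 0.572, kept 55.4%. The Spearman correlation over the 32 bodies was 0.78, a description over genes that share their libraries. It was not particular to the family: all genes of the denser class kept a median of 78.7% (133 bodies) and those of the sparser class 64.7% (12874 bodies). Over the 13 tested promoters at 50% or more in PBS the correlation of the CpG ratio with the share kept was 0.13. Over all such promoters the median share kept was 66.1% at a ratio under 0.4, 71.7% at 0.4 to 0.6 and 76.6% at 0.6 or more. In the same order the forkhead medians were 63.1% (2 promoters), 78.0% (2) and 76.9% (9), with too few promoters in the lower classes to show a trend.

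**Figure D5:**
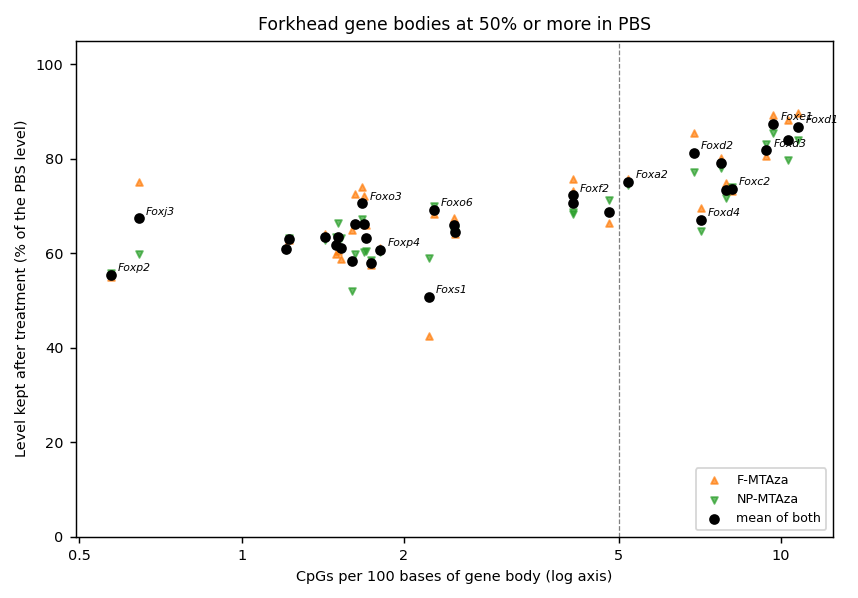
CpGs per 100 bases of gene body (log axis) against the level kept after treatment in % of the PBS level, for the 32 tested forkhead bodies at 50% or more in PBS. Triangles are F-MTAza and NP-MTAza, black points their mean, and the dashed line marks 5 CpGs per 100 bases. Bodies to its right keep 67.1 to 87.4%, bodies to its left 50.8 to 72.3%.

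Delivery in micelles was compared with free drugs next. By limma 0 of 29 promoters and 0 of 38 bodies differed between NP-MTAza and F-MTAza, as did 0% of all promoters and bodies tested, with 1 promoter and 4 bodies at an unadjusted p under 0.05. The promoter was that of Foxl2, 11.4 points lower in NP-MTAza by value. Of the bodies, Foxi3, Foxj3 and Foxm1 were lower in NP-MTAza by value, with differences of -8.55, -11.8 and -12.3 points, and Foxs1 was higher by 15.8 points. These names were chosen after their values were seen. Median differences were -1.14 points over promoters and -2.18 points over bodies. The median interval reached 9.60 and 9.42 points to either side. At many of these genes a smaller difference between the formulations could therefore be missed.

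The 6 combination libraries were also set against Aza replicate 3, the question being what metformin and tolvaptan add. Again 0 promoters and 0 bodies of the family passed limma, and 0% of all genes did, with 0 and 2 at an unadjusted p under 0.05. The bodies were Foxi1, 14.9 points higher in the combinations by value, and Foxj3, 13.2 points higher, both named after their values were seen. With a single Aza library the median interval was 12.7 points for promoters and 12.5 points for bodies. With Aza replicates 1 and 2 included, 6 promoters were lower in the combinations than in Aza (Foxo3, Foxa1, Foxf2, Foxc1, Foxn2 and Foxb1) and 2 higher (Foxe3 and Foxl2), where 45.5% of all promoters were lower and 2.78% higher. In the same model 6 of 28 promoters were lower in Aza than in PBS (Foxd1, Foxs1, Foxd3, Foxe3, Foxc2 and Foxl2), where 12.6% of all promoters were lower and 3.98% higher, and Foxc1 was 35.3 points higher.

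At the level of single CpGs, sites with 5 or more reads in each of the 6 libraries compared were put to a likelihood ratio test on pooled reads. A call needed a q below 0.01 and a change of 35 points or more. After F-MTAza 16 of 485 CpGs in forkhead promoters were lower (3.30%, against 5.68% of all promoter CpGs) and 251 of 883 in bodies (28.4%, against 26.5%). After NP-MTAza the counts were 54 of 662 in promoters (8.16%, against 6.93%) and 454 of 1524 in bodies (29.8%, against 31.3%). The libraries of the 2 groups did not overlap at 238 of the 267 called CpGs and at 470 of the 508. These CpGs had already been picked for a pooled difference of 35 points or more, so the counts lend the calls no support. The share over the called CpGs of all genes was not computed. The pooled test takes no account of spread between replicates. With an overdispersion correction and an F test 0 forkhead CpGs passed in either comparison, with 453 and 866 at an unadjusted p under 0.05. That F test called 0 of all 501172 and 0 of all 796319 autosomal CpGs as well. With a chi-square version added after the data were seen, 235 of 1368 and 455 of 2186 forkhead CpGs were lower. Over all autosomal CpGs tested, 94759 of 501172 and 180858 of 796319 were lower.

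Foxp1 held the most called CpGs: in its body 78 of 125 were lower with the free drugs (F-MTAza) and 108 of 193 with the micelles (NP-MTAza). Foxp4 followed Foxo3 after NP-MTAza, with 60 of 150 body CpGs against 63 of 218, and led it after F-MTAza, with 38 of 74 against 28 of 139. In the Foxk1 body 29 of 60 and 49 of 83 CpGs were lower. Promoter calls were scattered: 12 of 27 at Foxp2 and 8 of 17 at Foxk1 after NP-MTAza were the highest counts. In the Foxk1 promoter, which had not passed as a whole, the 8 called CpGs, picked for their pooled difference, had no overlap between the groups. At the other end, none of 100 and 117 CpGs of the Foxo3 promoter and none of 53 and 58 of the Foxc1 body was called. A single forkhead CpG was called higher, at position 31651629 of chr13 in the Foxq1 body, just beyond the printed stretch. It read 30.0, 58.3 and 45.5% in PBS and 90.9, 83.3 and 83.3% in NP-MTAza on 6 to 12 reads a library (q = 0.0013), where 12 of 372490 body CpGs of all genes (0.00322%) were called higher. With PBS replicate 1 left out, with 10 or more reads or with the F test, 0 forkhead CpGs were called higher, and 2 with PBS replicate 2, PBS replicate 3 or NP-MTAza replicate 3 left out.

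Forkhead genes that lie side by side did not share a level. On chr13 Foxq1, Foxf2 and Foxc1 lie within 252 kb in that order, 64.8 and 175 kb apart, and their promoters averaged 23.6, 40.2 and 1.19% in PBS. After NP-MTAza they averaged 9.67, 24.2 and 0.424%, and none passed. On chr8 Foxc2 lies 29.2 kb beyond Foxf1a, a gene outside the family as defined by symbol here, and 9.05 kb before Foxl1, which the annotation lists as a pseudogene. The Foxf1a promoter read 41.9, 54.4 and 40.1% in PBS, 33.0, 37.5 and 33.6% in F-MTAza and 27.0, 24.6 and 16.6% in NP-MTAza, below the neighbouring Foxc2 in each of these libraries. Foxd2 and Foxe3, 16.2 kb apart on chr4, averaged 43.9 and 82.0% in PBS and were picked for mention after their values were seen. The X-linked Foxo4, Foxp3 and Foxr2 were not analysed here.

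Partners and targets of forkhead factors were counted with the same calls, to be read against the 22.4, 24.5 and 11.1% of all promoters that were lower after F-MTAza, after NP-MTAza and in Aza. Of 12 tested promoters of stroma and podocyte genes tied to Foxd1 and Foxc factors 8 were lower after F-MTAza, 9 after NP-MTAza and 4 in Aza. They included Pdgfrb, Wt1 and Pdgfra after both combinations. Wt1, a regulator of podocytes, averaged 88.7% ± 1.4 in PBS, 69.1% ± 11.0 in F-MTAza and 62.7% ± 5.5 in NP-MTAza. Of 8 promoters of Foxa partners and endoderm genes 6, 5 and 4 were lower. Hnf4a, a factor of liver and proximal tubule, averaged 86.8% ± 6.9 in PBS and fell to 38.0% ± 2.0 and 48.4% ± 3.9. Sox17 was lower after both combinations and Gata4 after F-MTAza. Median PBS levels of these 2 lists were 67.2 and 64.6%, far above the 14.9% of all promoters.

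Of 5 promoters of Foxi1 and intercalated cell genes 3, 2 and 2 were lower, with Aqp6 and Dmrt2 after both combinations and Ap1s3 after F-MTAza. Aqp6, an intercalated cell channel, averaged 71.3% in PBS, 40.7% in F-MTAza and 47.9% in NP-MTAza. Of 13 promoters of Foxj1 and motile cilium genes 4, 4 and 3 were lower, and Dnaic2, Hydin, Tekt2 and Ccdc40 were so after both combinations. Dnaic2, a dynein arm subunit, fell from 81.7% ± 4.1 to 47.8% ± 1.8 and 48.1% ± 8.9. Of 21 FoxO pathway promoters 3, 4 and 3 were lower: Pck1, an enzyme of gluconeogenesis, Sirt1 and Sgk1 after both combinations and Irs2 after NP-MTAza. Pck1 averaged 71.4% in PBS and 45.7 and 41.3% after the combinations. None of 15 promoters of Foxm1 target genes passed in limma, and their median PBS level was 3.03%. Among gene bodies, of which 84.6% of all were lower after F-MTAza, the lists had 15 of 22 FoxO pathway, 12 of 14 Foxm1 target, 9 of 10 intercalated cell, 12 of 12 cilium, 13 of 15 stroma and podocyte and 13 of 13 Foxa partner bodies lower. After NP-MTAza, where 87.1% of all bodies were lower, the counts in the same order were 15, 11, 9, 11, 15 and 13, and in Aza, with 80.3% of all, 14, 11, 8, 11, 13 and 10. Of the marker lists, 2 of 4 proximal tubule promoters were lower in each of the 3 comparisons, and of 5 promoters of other cells 3, 5 and 2. Of 36 Hox promoters 12, 12 and 6 were lower, and of 25 Sox and Tbx promoters 16, 16 and 5, again beside 22.4, 24.5 and 11.1% of all promoters.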

How the data were processed

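RRBS was done on 12 libraries, 3 for each of 4 groups taken from the sample titles. Per the submitters' processing notes and the methods, Trim Galore 0.4.4 was used for trimming and Bismark 0.20.1 with Bowtie2 for alignment to mm9. The authors merged both strands of a CpG and listed sites from 5 reads upward. In the deposited tables stand, for each CpG, the methylated and total read counts written as a ratio, and the percent methylated, rounded down by the authors. Levels here were computed from the deposited counts.

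Genes came from GENCODE M1 on mm9, with sequence from the mm9 reference. Reads were summed per promoter and body. The level's arcsine square root was fitted with limma 3.58.1 (R 4.3.3) over 10 libraries and all autosomal protein-coding genes with 3 or more CpGs in each library, p-values were adjusted by Benjamini-Hochberg over all of them, two-sided, and 95% intervals came from the same model on untransformed levels, so that an interval and its adjusted p can differ at the threshold. Depth was 25336747 to 65817118 reads, and intervals rest on the spread between libraries. Tables were handled in Python 3.11.15 with numpy 2.4.6, pandas 2.3.3 and scipy 1.17.1, and plots drawn with matplotlib 3.10.9.

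The members, the lists of partners, targets and markers, the Hox and the Sox and Tbx families and the tests were chosen with earlier results of these data known. Named were up to 12 promoters and bodies with the largest called mean difference, every forkhead promoter at 20% or more in PBS, the 5 lowest, kidney, cilium, proliferation and FoxO members, the gene clusters and up to 4 genes a list. On simulated data, limma recovered 31 and 30% of 20-point and 93 and 93% of 35-point losses at promoters (F-MTAza and NP-MTAza), 69 and 65% and 99 and 100% at bodies, with at most 9 false calls a comparison. With the single Aza library it recovered 7 and 55% at promoters and 29 and 87% at bodies. Only 200 of 11383 promoters and 200 of 15033 bodies were changed in these limma simulations, with a common spread setting for all genes of a part. In the real data far more genes were called. The limma shares and false calls therefore do not measure recovery or error in the real fit. The CpG test recovered 95.9% of 4000 losses of 50 points among 46448 CpGs of the NP-MTAza comparison, with 2 false calls. Those reads were simulated without spread between libraries beyond counting, as the pooled test assumes. The 2 false calls therefore do not measure its error in the real data. Alternatives changed depth, CpG set, weighting, window, scale, spread, difference minimum, libraries and replicate block. Same-numbered replicates did not deviate together, with correlations of -0.084 to 0.057 over promoters. A few genes that enter the counts are not reported here by name.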

Additional observations from a re-analysis of the deposited data

Results flagged for a closer look

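Aza replicates 1 and 2, left out of every count above except where stated, read higher than the highest PBS library at 10 of the 30 forkhead promoters with a value in both (33.3%, against 55.8% of all promoters), and lower than the lowest at 12 (40.0%, against 21.1%). They are described here as libraries outside the comparisons. Among the promoters that PBS left nearly unmethylated, Foxc1 read 55.6 and 52.9% in these libraries against at most 2.51% in PBS, Foxa1 50.6 and 53.4% against 10.3%, Foxn2 58.7 and 25% against 9.35%, and Foxo3 25.9 and 36.3% against 5.65%. Among promoters at intermediate levels, Foxq1 read 66.1 and 36.9% (PBS at most 31.3%), Foxm1 59.2 and 67.3% (41.4%), Foxh1 58.6 and 44.8% (31.5%), Foxn4 51.0 and 56.2% (37.8%), Foxf2 58.8 and 62.6% (43.2%) and Foxa2 67.8 and 64.1% (58.7%).

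In gene bodies the direction was mostly the other: at 29 of 37 forkhead bodies both libraries lay below the lowest PBS library (78.4%, against 77.6% of all bodies) and at 1 both lay above the highest (2.70%, against 5.17%). That body was Foxc1, at 38.4 and 49.5% against at most 1.75% in PBS. Aza replicate 3, with the same label and dose, read 0.971% at the Foxc1 promoter and 0.102% at its body. Both libraries were read with 2 barcode sets, list repeated positions and have more sites off a CG of mm9, and the part of any of these in the levels was not tested.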

How the results depend on the processing

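No forkhead call changed direction under any alternative run. Of 113 family counts recomputed in other ways than leaving out 1 replicate, 91 stayed within 1.5 times and 22 moved. The 113 include NP-MTAza against F-MTAza and the combinations against Aza, where the main counts were 0 and an unchanged 0 was scored as staying. Dropping the difference minimum could not lower a count. The total of 91 is therefore no measure of how stable the calls were. For promoters, CpGs with 10 or more reads gave 5 calls after F-MTAza, 4 after NP-MTAza (of 12 tested in both) and 1 in Aza, and a log2 ratio scale gave 5, 7 and 1. With Aza replicates 1 and 2 the promoter counts were 0, 0 and 6, with 6 for the combinations against Aza, and a single barcode set gave 1 after NP-MTAza. CpGs listed in all 10 libraries gave 5 promoters in Aza (of 21) and 21 bodies after NP-MTAza (of 31). At 10 reads 13, 15 and 15 bodies (of 21) were lower. Single CpGs numbered 0 and 0 with the F test, 58 (of 251) and 176 (of 629) at 10 reads and 446 and 874 at a minimum of 25 points, against 267 and 508. The F test called 0 of all CpGs tested as well. Leaving out each replicate in turn gave 8 to 10, 7 to 13 and 2 to 4 promoters, the 7 without NP-MTAza replicate 2, 27 to 30, 30 to 34 and 26 to 31 bodies, 0 for both other comparisons, and 267 to 366 and 516 to 678 CpGs. Same-numbered samples share only a number: with the replicate block 8, 10 and 2 promoters and 29, 33 and 27 bodies were lower, and 0 in the other comparisons. The block ended the calls of the Foxa2 (F-MTAza, adjusted p = 0.0527), Foxp2 (NP-MTAza, 0.072) and Foxb2 (Aza, 0.067) promoters and of the Foxd3 and Foxn2 bodies in Aza. Of the single-gene calls under all alternatives 1961 held and 133 were lost. These totals leave out calls that an alternative could not test, and dropping the difference minimum could lose none. At a median of 7 to 9 reads a CpG, limma recovered 31 and 30% of simulated 20-point promoter losses, so losses of that size could be missed. Few genes were changed in that simulation, so how often such losses were missed in the real data was not measured. The cause of the other changes was not tested.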
